A study of Mus musculus with 3 samples.

Results

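Pcp2, Cbln1, Cbln3, Gabra6, Zic1, Zic2, En2 and Calb1 are 8 genes used as markers of cerebellar neurons, and they were followed through 3 mouse brain libraries. They were taken by symbol, not by their values, although earlier results of these data were known when they were chosen. The aim was to see how much cerebellar tissue the dissected brains held. Of the 8 genes, 6 had a row among the 17992 symbols in the counts. The other two, Pcp2 and Gabra6, were found neither under these symbols nor under the synonyms that RefSeq gives for them, and are not analysed here. The lowest sum of any listed gene over the 3 libraries was 21 counts, and nothing in the sources used here says what set this minimum.

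The brains came from adult wild-type C57BL/6 mice, and each group had 1 library. The AGNHW library stands for animals dosed with AGNHW, a Chinese patent medicine whose full name is Angong Niuhuang Wan, at a daily 3 mg per g. The vehicle library came from mice with middle cerebral artery occlusion, a stroke model in which an artery that feeds the forebrain is blocked, and the sham library from the sham group. The labels do not say whether the AGNHW mice were also occluded, which part of the brain was taken, how long after surgery, or how many mice stood behind a library. Total counts were 18184691 in AGNHW, 15718594 in vehicle and 18286151 in sham. With 1 library per group there was no replicate and no test of the conditions. All intervals are 95% intervals that cover counting error only, and every ratio compares a pair of libraries, not the conditions behind them.

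The cerebellar cortex is built from a few kinds of neuron. Granule cells, which are small, very numerous and excitatory, send parallel fibres to the Purkinje cells, the large inhibitory neurons that carry the output of the cortex. Pcp2 encodes a modulator of G protein signalling found in Purkinje cells and in bipolar cells of the retina, and Calb1 encodes calbindin, a calcium buffer that is abundant in Purkinje cells. Gabra6 encodes a GABA-A receptor subunit that is typical of granule cells. Cbln1 and Cbln3 encode cerebellins, secreted by granule cells. Cbln1 links neurexins on the parallel fibre to a receptor on the Purkinje cell, and Cbln3 depends on Cbln1 for its secretion. Zic1 and Zic2 are zinc finger factors of granule cells, and En2 is a homeobox factor of the midbrain and hindbrain.

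The 8 genes differ in how far they are confined to the cerebellum. Gabra6, Cbln3 and, within the brain, Pcp2 are known as largely cerebellar. Calb1 is also made in the hippocampus, striatum and cortex, Cbln1 in the thalamus and other sites, Zic1 and Zic2 in meninges, septum and olfactory bulb, and En2 in midbrain dopamine neurons. In a library from whole tissue, fewer cells of a type and less RNA per cell cannot be told apart.

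The RefSeq table of promoters, with 250 bases before and 50 after each start (build GRCm38.p6), held an entry for 4 of the 8 genes. They are shown because they set the 3 largely cerebellar genes beside Zic1, which had at least 483 counts in each library. Each is printed 5′ to 3′ on the gene's own strand, with every CG dinucleotide in capitals. Pcp2 has several annotated starts, and the most upstream one is shown.
Gabra6, chr11:42321023-42321322, minus strand: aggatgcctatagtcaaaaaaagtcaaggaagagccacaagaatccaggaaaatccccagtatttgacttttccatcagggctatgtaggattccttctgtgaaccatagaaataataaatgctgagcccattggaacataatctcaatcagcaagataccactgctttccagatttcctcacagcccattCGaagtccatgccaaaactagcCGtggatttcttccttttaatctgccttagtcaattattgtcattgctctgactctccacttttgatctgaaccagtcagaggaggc
Cbln3, chr14:55884207-55884506, minus strand: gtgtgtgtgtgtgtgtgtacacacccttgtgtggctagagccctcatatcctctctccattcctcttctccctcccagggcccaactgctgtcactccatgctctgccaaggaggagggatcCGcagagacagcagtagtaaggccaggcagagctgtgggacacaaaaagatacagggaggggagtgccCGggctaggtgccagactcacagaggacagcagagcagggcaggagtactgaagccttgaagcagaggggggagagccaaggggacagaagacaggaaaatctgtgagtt
Pcp2, chr8:3625498-3625797, minus strand: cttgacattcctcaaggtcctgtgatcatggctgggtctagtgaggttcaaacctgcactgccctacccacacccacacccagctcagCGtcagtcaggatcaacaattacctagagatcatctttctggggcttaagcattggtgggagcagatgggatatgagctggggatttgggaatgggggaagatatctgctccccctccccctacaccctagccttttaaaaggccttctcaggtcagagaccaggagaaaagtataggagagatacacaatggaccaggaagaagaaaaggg
Zic1, chr9:91365719-91366018, minus strand: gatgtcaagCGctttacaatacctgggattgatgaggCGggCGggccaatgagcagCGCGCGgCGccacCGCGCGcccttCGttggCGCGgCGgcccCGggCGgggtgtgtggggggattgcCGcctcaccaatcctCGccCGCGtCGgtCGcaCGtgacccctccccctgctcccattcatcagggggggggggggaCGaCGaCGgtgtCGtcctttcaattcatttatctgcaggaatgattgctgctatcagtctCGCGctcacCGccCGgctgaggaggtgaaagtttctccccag

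The promoters of Gabra6 and Cbln3 each held 2 CG dinucleotides, and the one shown for Pcp2 held 1. The Zic1 promoter held 31. Over the 32851 promoters of the table the median was 7, and 89.4% had fewer CG dinucleotides than Zic1, against 14.1% with fewer than Gabra6 or Cbln3. The letters TATAAA were searched on both strands. None of the 4 windows shown held them, while 13.6% of all promoters in the table did, among them the window of another start of Pcp2. These counts describe the windows and were not linked to the levels by any test.

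Calb1, Cbln1, Zic1 and Zic2 had levels well above the counting floor in each library, and En2 and Cbln3 had at most 26 counts in a library. Calb1 had 1606 counts in AGNHW, 1254 in vehicle and 2058 in sham. This is 87.9 CPM in AGNHW, 82.4 CPM in vehicle and 109 CPM in sham, where CPM is the count scaled by library size and by a TMM factor (trimmed mean of M-values). The sham library was the highest for Calb1. Cbln1 had 819 counts in AGNHW, 722 in vehicle and 642 in sham, or 44.8, 47.5 and 34.1 CPM in that order of libraries. Here the sham library was the lowest.

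The pair of Zic genes was present at intermediate levels. Zic1 had 701 counts in AGNHW, 483 in vehicle and 755 in sham, which is 38.4, 31.8 and 40.1 CPM in that order. Zic2 had 363 counts in AGNHW, 284 in vehicle and 398 in sham, which is 19.9, 18.7 and 21.2 CPM. For both genes the vehicle library was the lowest and the sham library the highest, and the intervals of the 3 Zic2 levels overlapped.

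En2 and Cbln3 were near the lower edge of what was counted. En2 had 26 counts in AGNHW, 15 in vehicle and 14 in sham, or 1.42, 0.986 and 0.744 CPM. Cbln3 had 18 counts in AGNHW, 9 in vehicle and 15 in sham, or 0.986, 0.592 and 0.797 CPM. For comparison, a gene at 0 would allow a level of up to 0.164 CPM in AGNHW, 0.197 CPM in vehicle and 0.159 CPM in sham (3 counts per library). The intervals of the 3 libraries overlapped for each of these 2 genes. Together the 6 genes made up 0.0194% of the AGNHW counts, 0.0176% of the vehicle counts and 0.0212% of the sham counts.

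**Figure D1:**
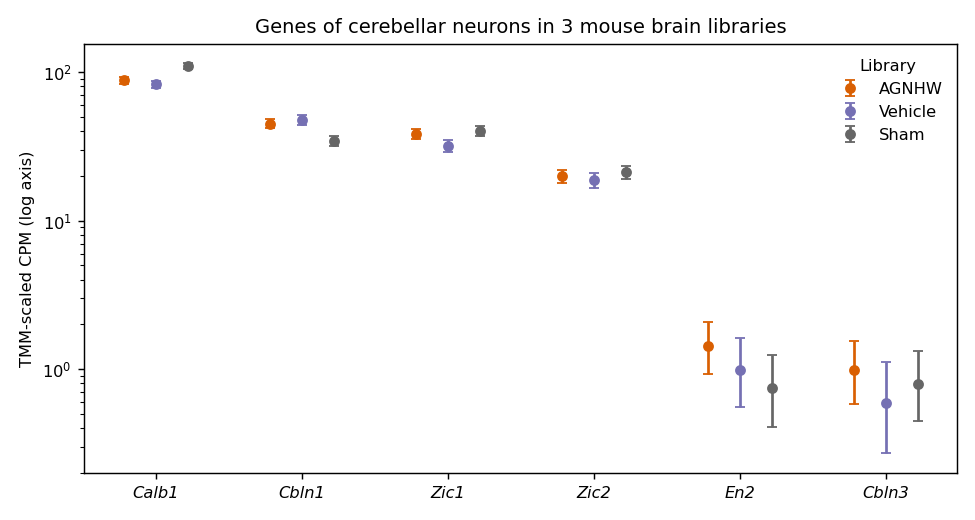
TMM-scaled CPM (log axis) of the 6 genes with counts in the AGNHW, vehicle and sham libraries, with 1 library per group. Points are libraries and bars are 95% exact Poisson intervals, which cover counting error only. Calb1, Cbln1, Zic1 and Zic2 lie between 18.7 and 109 CPM, and En2 and Cbln3 between 0.592 and 1.42 CPM.

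Levels of different genes were compared per kb of the longest protein-coding transcript in GENCODE M21. On this scale the order within each library was Calb1, Cbln1, Zic2, Zic1, En2 and Cbln3. Calb1 stood at 20.8 CPM per kb in AGNHW, 19.5 in vehicle and 25.9 in sham. Cbln1 stood at 16.0 CPM per kb in AGNHW, 17.0 in vehicle and 12.2 in sham, so that its distance below Calb1 was widest in sham. These levels were not corrected for transcript length and GC content. After the correction described below, log2 ratios in vehicle against sham were 0.21 for Calb1 and 0.22 for Cbln1. In AGNHW against sham they were 0.09 for Calb1 and 0.25 for Cbln1. Zic2 lay between 7.65 and 8.67 CPM per kb and Zic1 between 5.66 and 7.16, and their intervals overlapped in the AGNHW library. The levels of En2, 0.210 to 0.402 CPM per kb, and of Cbln3, 0.122 to 0.203, had overlapping intervals in each library. Part of this order rests on the transcript chosen. Per kb of their shorter coding transcripts, Zic1 lay between 11.3 and 14.3, above Zic2 in each library, and Cbln1 at 26.4 in AGNHW and 27.9 in vehicle, above Calb1 there.

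Cbln3 stood apart from its partner Cbln1. Per kb, Cbln1 exceeded Cbln3 79.1-fold in AGNHW, 139-fold in vehicle and 74.4-fold in sham. Cbln3 lay at percentile 4.20 of listed genes with a known transcript length in AGNHW, at 2.18 in vehicle and at 2.53 in sham, while Cbln1 lay at percentiles 75.8, 76.5 and 70.5 in the same order. Cbln3 has a second annotated transcript of 1438 bases beside the one of 4866 bases. Counted per kb of the shorter one, its levels were 0.685 CPM per kb in AGNHW, 0.412 in vehicle and 0.554 in sham, still far below Cbln1 at 20.1 to 27.9 per kb of its own shorter transcript.

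Of the 3 largely cerebellar genes, Cbln3 alone was measured here, with at most 18 counts in a library, while the members with known sites outside the cerebellum carried nearly all the counts. The levels therefore do not bear out the label of cerebellar neuron genes for the 8 as a group. Why Gabra6 and Pcp2 had no row cannot be told from the counts, and nothing about their level is read from it. The tissue source of the Calb1, Cbln1 and Zic transcripts was not tested.

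Vehicle was first set against sham, which places the occluded brain beside the control. None of the genes passed the size rule, which asks for a ratio of at least 1.5 either way with an interval that excludes 1. It was applied to genes with a mean of at least 1 CPM, which left 5 of the 6 and set Cbln3 aside. Of 15557 genes compared between these libraries, 22.9% passed (8.66% higher and 14.2% lower in vehicle), against 0 of 5 here. Cbln1 had the ratio farthest above 1 among the well-counted members, 1.39 (1.25 to 1.55), which fell short of the size rule. Calb1 had a ratio of 0.754 (0.702 to 0.809) and Zic1 one of 0.791 (0.705 to 0.888). Zic2, at 0.883 (0.755 to 1.03), En2, at 1.33 (0.597 to 2.96), and Cbln3, at 0.742 (0.286 to 1.81), had intervals that included 1.

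Between these libraries a smooth trend on transcript length and GC content accounted for 49.9% of the variance of log2 ratios over 9941 genes. After correction for this trend, Calb1 had a ratio of 1.16 (1.08 to 1.24) and Zic1 one of 1.06 (0.947 to 1.19), so the side of 1 on which both lay was the opposite of that before correction. Cbln1 had a corrected ratio of 1.17 (1.05 to 1.30). Zic2 had one of 0.702 (0.601 to 0.820), and again 0 of 5 genes passed, against 11% of 15233 genes after correction (4.33% higher and 6.66% lower).

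AGNHW was next set against vehicle, the comparison of the treatment with the occlusion model. Again 0 of 5 genes passed the size rule, against 6.57% of 15558 genes (4.01% higher and 2.56% lower in AGNHW). After correction it was again 0 of 5, against 4.75% of 15234 genes (3.14% higher and 1.6% lower). Calb1 had a ratio of 1.07 (0.990 to 1.15), Cbln1 0.945 (0.854 to 1.05) and Zic2 1.06 (0.909 to 1.25), each with an interval that included 1. After correction Calb1 had a ratio of 0.919 (0.853 to 0.990) and Cbln1 one of 1.02 (0.925 to 1.13), each on the other side of 1, and Zic2 one of 1.19 (1.01 to 1.39). Zic1 had a ratio of 1.21 (1.07 to 1.36), and 1.06 (0.938 to 1.19) after correction. En2 had a ratio of 1.44 (0.737 to 2.93) and Cbln3 one of 1.67 (0.711 to 4.21). For these 2 genes a difference of the size of the ratio was not detectable at this depth.

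Between AGNHW and sham, 0 of 5 genes passed, against 8.79% of 15558 genes (3.32% higher and 5.47% lower in AGNHW). After correction it was 0 of 5 as well, against 5.86% of 15234 genes (2.74% higher and 3.12% lower). Cbln1 had a ratio of 1.31 (1.18 to 1.46) and Calb1 one of 0.804 (0.753 to 0.859). After correction these were 1.19 (1.08 to 1.33) for Cbln1 and 1.06 (0.994 to 1.13) for Calb1. Zic1 had a ratio of 0.957 (0.862 to 1.06) and Zic2 one of 0.940 (0.813 to 1.09). After correction Zic1 lay on the other side of 1, at 1.12 (1.01 to 1.25), and Zic2 at 0.834 (0.722 to 0.964). En2 had 26 against 14 counts and a ratio of 1.91, with an interval of 0.963 to 3.96, and Cbln3 had a ratio of 1.24 (0.588 to 2.64). The comparisons with sham share the sham library, and those with vehicle share the vehicle library.

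**Figure D2:**
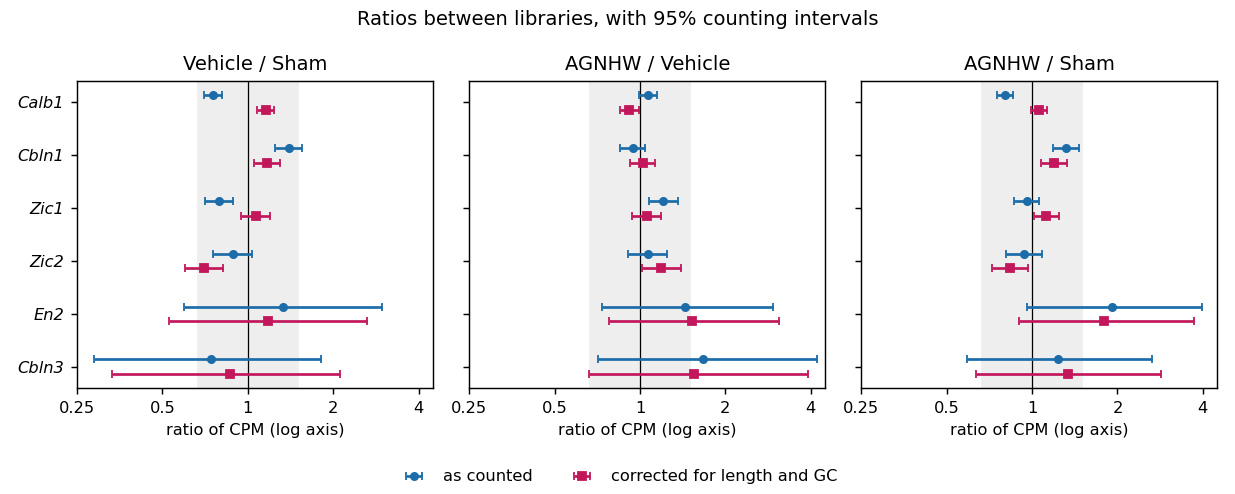
Ratio of TMM-scaled CPM (log axis) for each gene in vehicle over sham, AGNHW over vehicle and AGNHW over sham. Circles are ratios as counted, squares are ratios corrected for transcript length and GC content, bars are 95% counting intervals, and the grey band spans ratios inside the 1.5-fold limit. The vehicle over sham ratio of Calb1 lies at 0.754 as counted and at 1.16 after correction.

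Other genes of the granule cell were followed from a list of 20, of which 19 had a row and 18 a mean of at least 1 CPM. Atoh1, the factor that founds the granule lineage, had no row. Vehicle was higher than sham for 1 of these and lower for 3, and the median log2 ratio was -0.34 beside 0.01 over all genes compared. Over all genes 8.66% were higher and 14.2% lower, so the granule count lies near the share over all genes. The shares given above for each comparison apply to the later lists as well. Etv1, a transcription factor of maturing granule cells, had 371 counts in vehicle and 972 in sham and was 2.12-fold lower (1.88 to 2.39). The proneural factor Neurod1 had 59 counts in vehicle and 153 in sham and was 2.10-fold lower (1.54 to 2.88). Chn2, a Rac-regulating protein, had a ratio of 0.664 (0.568 to 0.775), and Calb2, which encodes the calcium buffer calretinin, was 1.53-fold higher (1.42 to 1.65). With the length and GC trend removed, Neurod1 alone passed, as lower, and the median was -0.11. The corrected ratio was 0.773 (0.684 to 0.872) for Etv1, 0.788 (0.674 to 0.920) for Chn2 and 1.16 (1.07 to 1.25) for Calb2. The tissue source of these transcripts was not tested.

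Fat2, a giant cadherin that is typical of granule cells, was named after its values were seen. It had 9 counts in AGNHW, 23 in vehicle and 5 in sham, which is 0.493 CPM in AGNHW, 1.51 in vehicle and 0.266 in sham. Its ratio was 5.69 (2.12 to 19.2) in vehicle against sham and 0.326 (0.133 to 0.731) in AGNHW against vehicle, but its mean lay under 1 CPM and the size rule was not applied. Barhl1, another factor of the granule lineage and also named after its values were seen, had 34 counts in AGNHW, 38 in vehicle and 34 in sham.

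In AGNHW against vehicle the granule list had 1 higher and 0 lower genes and a median of 0.23. This was the homeobox gene Barhl2, with 45 counts in AGNHW and 21 in vehicle and a ratio of 1.78 (1.04 to 3.15). Between AGNHW and sham 0 were higher and 1, Neurod1, was lower, at 1.52-fold (1.17 to 1.97), with a median of -0.02. After correction its ratio was 0.735 (0.565 to 0.954), inside the 1.5-fold limit, and 0 genes of the list passed.

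Purkinje cell genes were followed from a list of 23, of which 22 had a row and 21 were compared. Skor2, a corepressor of developing Purkinje cells, had no row. Vehicle was higher than sham for 6 of these and lower for 2, beside 8.66% higher and 14.2% lower over all genes. The median log2 ratio was -0.02. Ppp1r17, a phosphatase inhibitor of Purkinje cells, had 27 counts in vehicle and 12 in sham and was 2.78-fold higher (1.36 to 6.03). The homeobox gene Lhx5 had 64 counts in vehicle and 33 in sham and was 2.40-fold higher (1.55 to 3.77). Gng13, a G protein subunit, was 1.95-fold higher (1.62 to 2.35), and Slc1a6, the glutamate transporter of Purkinje cells, 1.70-fold higher (1.42 to 2.04). With the trend removed, Ppp1r17 and Lhx5 stayed higher, and 1 gene was lower. Whether the transcripts of this list came from Purkinje cells was not tested.

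Car8, a carbonic anhydrase-related protein that is highly enriched in Purkinje cells, was chosen after its values were seen. It had 72 counts in AGNHW, 58 in vehicle and 96 in sham, with a ratio of 0.747 (0.530 to 1.05) in vehicle against sham. In AGNHW against vehicle 0 Purkinje genes were higher and 1 was lower, Gng13, at 1.72-fold (1.44 to 2.06), which fell inside the 1.5-fold limit after correction. In AGNHW against sham 2 were higher and 0 lower. These were Ppp1r17 at 2.23-fold (1.09 to 4.86) and Lhx5 at 1.84-fold (1.18 to 2.91).

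Glia and interneurons of the cerebellar cortex were read from shorter lists, and these genes also serve elsewhere in the brain. Of 7 genes of Bergmann glia, the astrocytes that line Purkinje cells, 1 was higher and 0 lower in vehicle against sham. This was the protease inhibitor Timp4, at 1.98-fold (1.79 to 2.2). In AGNHW against vehicle 0 moved past the rule, and in AGNHW against sham Timp4 was 1.58-fold higher (1.42 to 1.75) and the lipid carrier Fabp7 1.81-fold lower (ratio 0.553, 0.447 to 0.683). Of 10 interneuron and unipolar brush cell genes, 8 were compared, and 1 was higher and 3 lower in vehicle against sham. Over all genes these shares were 8.66% and 14.2%. The neuronal glycine transporter Slc6a5, which cerebellar Golgi cells share with the brainstem, had 4 counts in AGNHW, 57 in vehicle and 3 in sham. The receptor kinase Kit had a ratio of 0.580 (0.50 to 0.673) in vehicle against sham, Nxph1 0.629 (0.537 to 0.736) and Sorcs3 0.633 (0.555 to 0.721). After correction none of these 3 passed, while Slc6a5 did.

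The cerebellin family and its binding partners were followed as well. Cbln2 had 444 counts in AGNHW, 281 in vehicle and 488 in sham, and Cbln4 had 345 counts in AGNHW, 187 in vehicle and 309 in sham. Both had vehicle as the lowest library, whereas Cbln1 had sham as the lowest. In vehicle against sham, Cbln2 had a ratio of 0.712 (0.613 to 0.827) and Cbln4 one of 0.749 (0.621 to 0.901), both short of the size rule. In AGNHW against vehicle, Cbln4 was 1.54-fold higher (1.28 to 1.85) and Cbln2 had a ratio of 1.32 (1.13 to 1.53). Grid1, which encodes a glutamate receptor family protein that binds cerebellins, had ratios between 0.948 and 0.999 in the 3 comparisons.

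Among the neurexins, the presynaptic partners of cerebellins, Nrxn3 was lower in vehicle than in sham with a ratio of 0.567 (0.529 to 0.609). Nrxn2 had a ratio of 1.04. In this comparison 1 of the 7 genes of the family and its partners passed, and 0 did so after correction.

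These Zic genes lie in head-to-head pairs. In GRCm38, Zic1 and Zic4 on chromosome 9 have starts 3397 bases apart and exons that overlap on opposite strands, and Zic2 and Zic5 on chromosome 14 have starts 9758 bases apart. The strand setting of the counting is not known, so reads of Zic1 and Zic4 in the overlap cannot be told apart. Zic4 had 139 counts in AGNHW, 99 in vehicle and 150 in sham. Zic5 had 88 counts in AGNHW, 62 in vehicle and 112 in sham. Each of these 4 Zic genes had its lowest CPM in vehicle, with vehicle over sham ratios of 0.791 for Zic1, 0.883 for Zic2, 0.817 for Zic4 and 0.685 for Zic5. None passed the size rule, and after correction the ratios lay between 0.702 (Zic2) and 1.06 (Zic1). Within a library, Zic1 stood at 0.841 of the Zic2 level per kb in AGNHW, 0.740 in vehicle and 0.826 in sham.

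GABA-A receptor subunits other than Gabra6 had counts in each library. Gabrd, the delta subunit that joins the Gabra6 product in extrasynaptic receptors of granule cells and is also made in the forebrain, had 1456 counts in AGNHW, 1425 in vehicle and 1262 in sham. Its ratio was 1.40 (1.29 to 1.51) in vehicle against sham, short of the size rule. Of the 9 subunits followed, 0 were higher and 6 lower in vehicle against sham, with a median log2 ratio of -0.61. Over all genes 8.66% were higher and 14.2% lower. Gabrb2 had 181 counts in AGNHW, 68 in vehicle and 592 in sham, with a ratio of 0.142 (0.109 to 0.183) in vehicle against sham. Gabra2, which had 345 counts in AGNHW, 734 in vehicle and 1369 in sham, was lower than in sham in both other libraries. In vehicle against sham its corrected ratio was 1.08 (0.987 to 1.18), inside the 1.5-fold limit. In AGNHW its ratio as counted was 0.260 (0.230 to 0.292) against sham and 0.391 (0.343 to 0.445) against vehicle. After correction 1 of the 9 was lower in vehicle than in sham. In AGNHW, after correction, 2 were lower and 0 higher than in sham, and 1 was lower and 1 higher than in vehicle.

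Markers of neighbouring regions were read in the same way. Factors of the midbrain-hindbrain boundary, where En2 is first switched on, were low. Of 10 such genes 8 had a row, with summed levels of 16.3 CPM in AGNHW, 17.0 in vehicle and 11.3 in sham, and Pax8 and Fgf8 had none. En1, the close relative of En2, had 28 counts in AGNHW, 32 in vehicle and 11 in sham. It was 3.60-fold higher in vehicle than in sham (1.77 to 7.91) and 2.62-fold higher in AGNHW than in sham (1.27 to 5.84). Fgf17, a growth factor of this boundary, had 31 counts in AGNHW and 11 in sham, a ratio of 2.90 (1.42 to 6.40). Midbrain dopamine neurons, which use En1 and En2, were read from 8 genes, of which 6 had a row and 5 were compared. Vehicle was higher than sham for 3 of these and lower for 1, and AGNHW was higher than sham for 2 and lower for 1. Over all genes 8.66% were higher and 14.2% lower in vehicle, and 3.32% higher and 5.47% lower in AGNHW. After correction 3 of these 5 were higher and 1 lower in vehicle than in sham, beside 4.33% and 6.66% over all genes. In AGNHW against sham 2 were then higher and 0 lower, beside 2.74% and 3.12%. Tyrosine hydroxylase (Th) had 334 counts in AGNHW, 240 in vehicle and 192 in sham, and was 1.55-fold (1.27 to 1.88) higher in vehicle than in sham (1.24-fold after correction, inside the limit) and 1.79-fold (1.5 to 2.15) higher in AGNHW than in sham. Nr4a2, a nuclear receptor needed by these neurons and also made elsewhere in the brain, went the other way. It had 297 counts in AGNHW, 227 in vehicle and 482 in sham, with ratios of 0.583 (0.495 to 0.684) in vehicle against sham and 0.635 (0.548 to 0.735) in AGNHW against sham. After correction it was still lower in vehicle than in sham, at 0.654, but inside the limit in AGNHW against sham, at 0.672.

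Genes of the hindbrain and spinal cord were mostly without a row. Of 25 listed, 6 had a row. All 15 Hox genes of that list were without one, as was every other symbol of the 4 Hox clusters. As for Gabra6 and Pcp2, nothing about the level of these genes is read from a missing row. The summed level of the genes with a row was 8.27 CPM in AGNHW, 18.5 in vehicle and 5.47 in sham. In vehicle against sham 3 of 5 compared were higher and 0 lower, beside 8.66% higher and 14.2% lower over all genes. Among them was the serotonin transporter Slc6a4, with 20 counts in AGNHW, 103 in vehicle and 1 in sham. Tph2, the enzyme of serotonin synthesis, had 21 counts in AGNHW, 64 in vehicle and 16 in sham. Chat, the enzyme of acetylcholine synthesis, and the glycine receptor subunit Glra1 were instead lowest in vehicle. Chat had 69 counts in AGNHW, 29 in vehicle and 50 in sham, with a ratio of 1.98 (1.27 to 3.17) in AGNHW against vehicle, and Glra1 had 22 counts in AGNHW, 16 in vehicle and 26 in sham. The vehicle library, which was highest for Slc6a4, Tph2, Slc6a5 and Fat2, was also the one with pituitary transcripts. Growth hormone (Gh) had 4 counts in AGNHW, 39065 in vehicle and 0 in sham. The part of such tissue in the values of the listed genes was not tested. Cbln3 had its lowest count in vehicle.

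**Figure D3:**
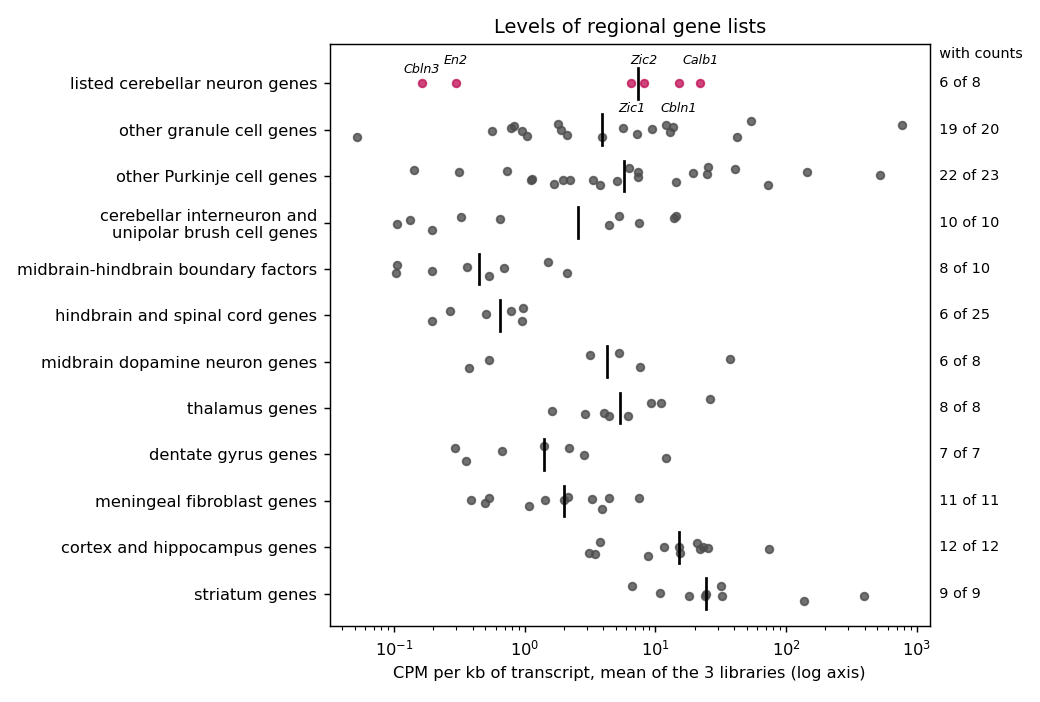
CPM per kb of transcript (log axis, mean of the 3 libraries) of each gene with counts, by list, with a bar at the list's median. The numbers at the right give how many listed genes had a row. Cbln3 and En2 lie with the hindbrain and boundary genes, and Calb1 and Cbln1 lie among the cortical genes.

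Forebrain genes were present in full. The 12 genes of cortex and hippocampus had a row each, with a median of 14.9 CPM per kb in AGNHW, 13.9 in vehicle and 17.0 in sham. The 9 striatal genes had medians of 26.8 in AGNHW, 24.9 in vehicle and 25.4 in sham. Of regions where some of the 8 genes are also made, the 7 dentate gyrus genes summed to 63.2 CPM in AGNHW, 53.0 in vehicle and 69.4 in sham. The 8 thalamic genes summed to 229 CPM in AGNHW, 216 in vehicle and 230 in sham, and 0 of them passed in vehicle against sham. The 11 meningeal genes summed to 97.9 CPM in AGNHW, 83.3 in vehicle and 97.9 in sham, and the 6 olfactory bulb genes to 33.9, 28.7 and 29.9 CPM in the same order. The dentate, thalamic, meningeal and olfactory bulb sums had vehicle as the lowest library, as had Zic1, Zic2 and Calb1. This was not particular to these regions. The cortex and hippocampus genes summed to 692 CPM in AGNHW, 647 in vehicle and 792 in sham. The Bergmann glia and cerebellar interneuron sums were also lowest in vehicle, while the striatal, granule and Purkinje sums were highest there. A single gene held most of each of these higher sums in vehicle. Ppp1r1b made up 957 of 1551 striatal CPM, Slc17a7 2554 of 3103 granule CPM and Aldoc 1705 of 2894 Purkinje CPM. By median CPM per kb, vehicle was instead the lowest library for the striatal and granule lists, and the highest for the Purkinje list. After correction Calb1 and Zic1 had ratios of 1.16 and 1.06 in vehicle against sham. The part of these regions in the levels of Zic1, Zic2 and Calb1 was not tested.

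**Figure D4:**
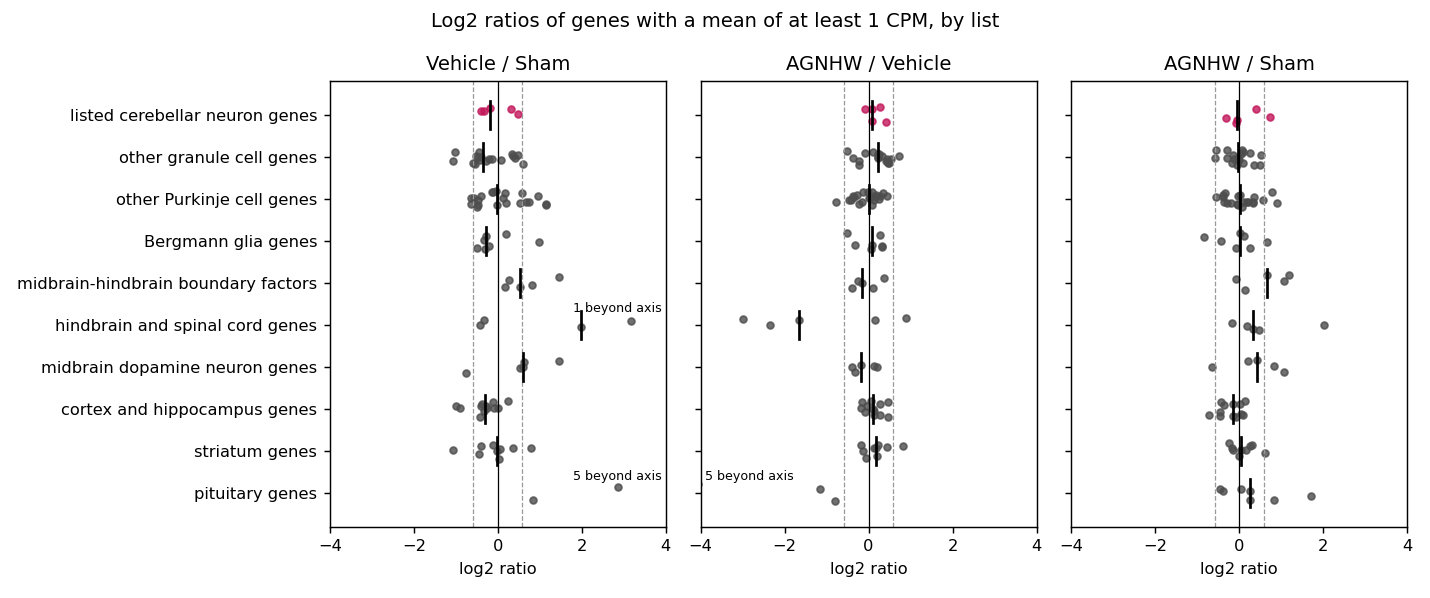
Log2 ratio of each gene with a mean of at least 1 CPM in vehicle over sham, AGNHW over vehicle and AGNHW over sham, by list. Bars are list medians and dashed lines mark the 1.5-fold limit. The listed cerebellar neuron genes have medians of -0.18, 0.09 and -0.06 in the order of the panels, and the pituitary list runs past the axis in the comparisons with vehicle.

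Other tissues were read from short lists as well. The 7 choroid plexus genes summed to 657 CPM in AGNHW, 965 in vehicle and 542 in sham, and the 7 red blood cell genes to 338 CPM in AGNHW, 477 in vehicle and 347 in sham. The 10 pituitary genes, 8 of them with a row, summed to 5.42 CPM in AGNHW, 3747 in vehicle and 4.46 in sham.

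The genes closest in pattern to Calb1, Cbln1 and Zic1 were sought over the 3 libraries, because Gabra6 and Pcp2, intended for this, had no row. These 3 genes were chosen after seeing the data. Likeness was the Euclidean distance between log2 CPM values centred on each gene's mean. The nearest to Calb1 were Igip, Ctbp2, Rnf20, Zcchc2 and Prrg3, the nearest to Cbln1 were Sap30l, Slc6a11, Gas5, Immp1l and Washc3, and the nearest to Zic1 were Slc1a3, Cnot2, Sec62, Plekhn1 and Ptp4a2. With 3 libraries such likeness is common. Within a distance of 0.1 lay 614 of 10098 genes for Calb1, 543 for Cbln1 and 634 for Zic1. Among the well-counted members, Zic1 and Zic2 were 0.140 apart, Zic1 and Calb1 0.182, and Cbln1 and Calb1 0.659. These distances were taken without the length and GC correction, and the order did not hold with it. Corrected log2 ratios in vehicle against sham were 0.22 for Cbln1 and 0.21 for Calb1, but 0.09 for Zic1 and -0.51 for Zic2.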

How the data were processed

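RNA from 3 mouse brain samples was sequenced on an Illumina HiSeq instrument, per the series' design text. The authors deposited raw read counts per gene symbol. The submitters' processing notes name Bowtie2 2.2.3, TopHat2 2.0.12, HTSeq 0.6.0 and build mm9. Nothing in those sources gives the order of steps, the settings or the strand.

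Samples were grouped by title. Members were matched by symbol. Counts were scaled with TMM (edgeR 4.0.16, R 4.3.3). Ratios carry exact conditional binomial intervals and levels exact Poisson intervals, computed in Python 3.11.15 with scipy 1.17.1, and tested on simulated data. PCR copies cannot be told from molecules here, so intervals and floors cover counting error only. Log2 ratios used a prior count of 5. The length and GC trend was fitted by splines over genes of at least 10 CPM. Transcript lengths and positions come from GENCODE M21 (GRCm38), promoters from RefSeq (GRCm38.p6). Neither is the build of the counts, which give no coordinates. Of the symbols, 17569 had a length.

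Members and lists were chosen with earlier results of these data known. Named genes were the members, up to 4 compared genes per list with the largest absolute log2 ratio in a comparison, and the cerebellin, Zic and GABA-A partner genes. Fat2, Car8, Barhl1 and genes named for having no row fall outside this rule. Some genes that the rule names are not reported here. The settings varied were scaling by plain CPM or by DESeq2 1.42.0, other minimum levels, a 2-fold limit, a prior count of 1 and the correction.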

Additional observations from a re-analysis of the deposited data

How the results depend on the processing

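The number of listed genes past the size rule was 0 in each of the 3 comparisons. It was also 0 with plain CPM, DESeq2 size factors, no minimum level and the correction for transcript length and GC content. A minimum of 5 CPM and a ratio of at least 2 are stricter than the size rule, so they could only give 0 again and say nothing more about these genes. Over all genes, plain CPM gave 890 higher and 2836 lower in vehicle against sham, where TMM gave 1348 and 2207 and the correction 660 and 1015. In AGNHW against vehicle plain CPM gave 808 and 309, TMM 624 and 398 and the correction 479 and 244. In AGNHW against sham the correction gave 417 and 476, where TMM gave 517 and 851. Of 21 log2 ratios and medians of the listed genes, 9 moved by more than their counting error with the correction, and 0 did so with plain CPM, DESeq2 size factors or a prior count of 1. Corrected log2 ratios in vehicle against sham were 0.22 for Cbln1, 0.09 for Zic1, -0.51 for Zic2 and 0.21 for Calb1. The cause was not tested. En2 and Cbln3 had intervals that held both no difference and a 2-fold difference in each of the 3 comparisons. No paired analysis was possible because each group had 1 library.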
